A study of Mus musculus with 5 samples.

Results

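Chromosome 15 carried 15391 of the 195585 regions enriched for GFP-tagged macroH2A1.2 that were called in 4 chromatin immunoprecipitation (ChIP-seq) samples of mouse 3T3-L1 cells. The members were all called regions on chromosome 15 in any sample: pre-adipocyte replicates 1 and 2 gave 3038 and 3759 of them, and mature adipocyte replicates 1 and 2 gave 4198 and 4396. The chromosome was chosen by its covered share, meaning the percent of its length inside called regions, which was the highest of all chromosomes. Its covered share was 26.9% and 14.8% in the pre-adipocyte samples and 26.0% and 25.3% in the mature samples, with no test attached because this value was what it was selected on. The same share over the whole genome was 10.9%, 5.40%, 11.4% and 11.1%.

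3T3-L1 is a mouse fibroblast line committed to the fat lineage, and all 4 samples came from cells stably transduced with a lentivirus for macroH2A1.2 fused to GFP. The pre-adipocytes (n = 2) were undifferentiated, and the mature adipocytes (n = 2) had been differentiated after confluence by 60 h in a cocktail of insulin at 10 µg/ml, dexamethasone at 0.25 µM and IBMX at 500 µM, after which insulin alone was kept. The regions were called for each sample against 1 library titled as made without antibody. The titles set the mature samples apart as differentiated, whereas their description fields carry the pre-differentiation wording, and the titles were followed here. The construct is an overexpressed, tagged copy in a cell line, so the regions describe that copy. The share of cells that carried it and its amount per cell cannot be told apart in these bulk samples, and region calls hold no expression markers against which cell identity could be checked. The replicates are described as biological, but the labels do not state whether they were separate cultures, so the p-values measure the spread between these samples.

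MacroH2A1 is a histone variant in which an H2A-like part is joined to a large macro domain, and macroH2A1.2 is a splice form of it. The variant is laid down in broad stretches of chromatin, often over silent genes and large intergenic segments, and it is also known for holding developmental genes in check or helping to keep some of them inducible. A broad mark of this kind is called as islands of neighbouring read-rich windows, so a region can be short or span many kilobases and its edges depend on sequencing depth.

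Replicate 2 of the pre-adipocytes stood apart from the other libraries. Its size relative to the control library, read from the scaling of the deposited fold enrichments, was 0.549, against 1.20, 1.23 and 1.21 in pre-adipocyte replicate 1 and in mature replicates 1 and 2. Its chromosome 15 regions held 311217 ChIP reads against 1001161, 1089440 and 1055343, and its median region there was 3200 bp wide against 6200, 4200 and 4000 bp. The covered share, the counts of windows, regions and genes, and the counts of the fat cell, Hoxc and keratin lists are therefore also given without it. Apart from that library, depth was alike, and over the genome the regions of the 4 samples held 9876187, 2833105, 11592708 and 11202845 ChIP reads. Regions of replicate pairs that overlapped by at least 95% of both lengths (203 in pre-adipocytes, 986 in mature adipocytes) differed in ChIP reads by 1.09 times the counting variance between the pre-adipocyte samples and by 1.15 times between the mature samples. The replicates differed in region number and edges, and each was counted as a sample.

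Several promoters on the chromosome lay inside called regions, and their sequences are printed here because they are the gene starts on which the calls bear most directly. They come from RefSeq (GRCm38.p6, the mm10 build of the deposited coordinates) and run from 250 bases before to 50 bases after the annotated start, 5′ to 3′ on the gene's strand. Capitals mark any of 3 motifs, none of which contains another. The core of the box bound by Sp factors was searched as GGGCGG. The motif of zinc finger factors of the GATA family was searched as AGATAA. The box of the basal promoter was searched as TATAAA. Both strands were searched, so a motif on the other strand appears as its reverse complement. In all 4 samples 5 promoters were inside a region over their full length, those of Gtsf1 and Sstr3 and the 3 printed first: C9, a terminal complement component, Fyb, an adaptor of T cell signalling, and Gtsf2, a paralogue of the germline piRNA factor Gtsf1. The RefSeq start of Fyb lies inside the longer gene of the GENCODE annotation used for the gene counts.
C9, chr15:6445096-6445395, strand +: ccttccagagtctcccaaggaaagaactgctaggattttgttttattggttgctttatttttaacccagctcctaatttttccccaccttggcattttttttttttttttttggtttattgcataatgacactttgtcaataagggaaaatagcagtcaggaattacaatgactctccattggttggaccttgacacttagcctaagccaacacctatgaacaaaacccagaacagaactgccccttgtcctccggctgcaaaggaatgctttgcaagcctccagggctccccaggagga
Fyb, chr15:6579597-6579896, strand +: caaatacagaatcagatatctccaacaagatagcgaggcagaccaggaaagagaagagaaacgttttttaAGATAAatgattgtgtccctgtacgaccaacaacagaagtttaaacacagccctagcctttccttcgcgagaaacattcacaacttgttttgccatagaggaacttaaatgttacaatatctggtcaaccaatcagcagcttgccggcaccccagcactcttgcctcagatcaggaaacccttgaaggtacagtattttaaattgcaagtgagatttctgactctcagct
Gtsf2, chr15:103448410-103448709, strand -: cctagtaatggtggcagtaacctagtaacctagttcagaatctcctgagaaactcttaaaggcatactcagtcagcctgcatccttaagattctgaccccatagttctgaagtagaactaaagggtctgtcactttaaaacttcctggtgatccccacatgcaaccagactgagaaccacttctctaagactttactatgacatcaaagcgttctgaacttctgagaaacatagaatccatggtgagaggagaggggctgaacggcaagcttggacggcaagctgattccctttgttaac
The next 3, of 12 such entries, were wholly inside regions in both mature samples and untouched in both pre-adipocyte samples: Krt75, a hair follicle keratin, Krt84, a hair keratin, and Aqp2, the vasopressin-regulated water channel of the kidney.
Krt75, chr15:101573855-101574154, strand -: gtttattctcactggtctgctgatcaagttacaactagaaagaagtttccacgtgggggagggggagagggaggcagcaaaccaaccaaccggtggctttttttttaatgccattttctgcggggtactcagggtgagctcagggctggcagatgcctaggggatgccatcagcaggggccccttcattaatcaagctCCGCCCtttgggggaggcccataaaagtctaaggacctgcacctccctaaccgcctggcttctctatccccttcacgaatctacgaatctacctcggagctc
Krt84, chr15:101532771-101533070, strand -: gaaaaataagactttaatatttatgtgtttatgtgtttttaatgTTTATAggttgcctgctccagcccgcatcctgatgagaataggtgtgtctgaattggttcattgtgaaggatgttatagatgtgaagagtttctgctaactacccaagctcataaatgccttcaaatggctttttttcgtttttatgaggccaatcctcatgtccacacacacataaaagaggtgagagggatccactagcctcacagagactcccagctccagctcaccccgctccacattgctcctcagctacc
Aqp2, chr15:99578806-99579105, strand +: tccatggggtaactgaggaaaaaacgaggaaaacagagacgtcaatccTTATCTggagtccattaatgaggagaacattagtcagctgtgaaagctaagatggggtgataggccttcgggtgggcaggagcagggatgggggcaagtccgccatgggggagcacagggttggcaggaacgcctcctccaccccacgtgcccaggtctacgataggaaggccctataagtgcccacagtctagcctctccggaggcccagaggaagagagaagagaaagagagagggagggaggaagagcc
The promoter of Mlc1, a membrane protein of astrocytes, was the only entry with the opposite pattern over its full length.
Mlc1, chr15:88978504-88978803, strand -: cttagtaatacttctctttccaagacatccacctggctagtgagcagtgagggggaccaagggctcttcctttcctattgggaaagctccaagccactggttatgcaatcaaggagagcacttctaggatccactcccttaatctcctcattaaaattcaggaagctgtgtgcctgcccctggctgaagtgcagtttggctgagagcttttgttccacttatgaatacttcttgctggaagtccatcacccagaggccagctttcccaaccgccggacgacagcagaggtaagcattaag

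RefSeq gave promoters for 413 of the 785 protein-coding genes of chromosome 15, with 518 entries in all. The 5, 12 and 1 fully covered promoters above are among these entries, and no share over the genome stands beside those counts. For annotated gene starts such shares are given further below. Of the 518 entries, 148 touched a region in at least 1 sample and 370 touched none. GGGCGG was found in 36.5% of the touched and 58.1% of the untouched promoters, beside 47.8% of the 19543 promoters of coding genes on other chromosomes. AGATAA was found in 15.5% of the touched and 4.59% of the untouched promoters, beside 9.47% elsewhere, and TATAAA in 15.5% and 8.92%, beside 12.2%. The touched promoters thus held the GC-rich motif less often and the AT-rich motifs more often in this count. The 3 motifs differ in base composition, and the part of base composition was not tested. Over all 32851 promoters of the table, coding or not, the shares were 35.7%, 11.2% and 13.6%.

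Regions covered 14.8% to 26.9% of the chromosome per sample. The hairpin counts that follow have no share over the genome beside them. Of 35 annotated microRNA hairpins on the chromosome, 7 lay in a region in at least 1 sample and 1 did so in all 4. That one was Mir196a-2 (chr15:102973350-102973434), which lies between Hoxc10 and Hoxc9 and belongs to a microRNA family known to target Hox transcripts. Mir1941 (chr15:101369352-101369434) was in a region in both pre-adipocyte samples and in neither mature sample. Their mature sequences follow, with the seed (bases 2 to 8) in capitals; no seed is shared between the 4.
mmu-miR-196a-5p: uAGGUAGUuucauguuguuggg
mmu-miR-196a-2-3p: uCGGCAACaagaaacugccuga
mmu-miR-1941-5p: aGGGAGAUgcugguacagaggcuu
mmu-miR-1941-3p: cAUCUUAGcaguaucucccau

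The chromosome ranked highest in covered share in every sample, at 23.3% ± 5.65 on average (SD, n = 4), ahead of chromosome 2 at 16.7%, chromosome 16 at 15.8% and chromosome 17 at 15.8%. At the other end, chromosome 7 was covered over 1.19% and the X chromosome over 0.955%. Chromosome 15 makes up 3.92% of the mapped span and held 8.92% to 10.8% of all covered bases. It also ranked highest in regions per megabase, at 38.2, but 10th of the chromosomes in fold over control. Its regions held 18.1 control reads per kilobase, which ranked 8th, and its 7.78 protein-coding genes per megabase ranked 11th.

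**Figure D1:**
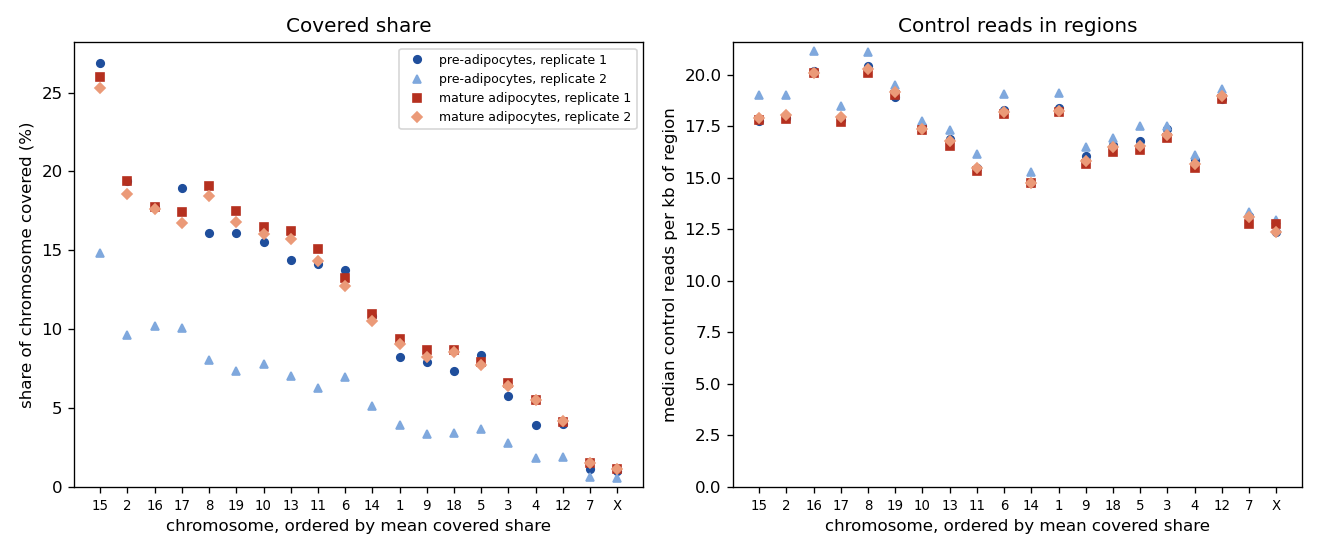
Left, percent of each chromosome's span covered by called regions, and right, median control reads per kilobase of region, with chromosomes ordered by mean covered share and 1 marker per sample. Chromosome 15 is at the top on the left in each sample (26.9%, 14.8%, 26.0% and 25.3%), while its control reads per kilobase lie among those of other chromosomes.

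Coverage was uneven along the chromosome. Of its 100 whole windows of 1 Mb, 36 had a mean covered share above 30% and these held 69.2% of the covered bases, whereas 26 windows were below 5% and 5 had no region in any sample. The median window was covered over 22.2%, with quartiles of 4.43% and 34.0%. On the other chromosomes 6.95% of 2461 windows exceeded 30%, 54.0% were below 5% and the median was 3.94%. The excess over other chromosomes was thus spread over many windows, with 12 above 50% (1.50% of windows elsewhere). Window profiles followed each other closely between samples, with Pearson's r across windows of 0.997 between the mature samples, 0.971 between the pre-adipocyte samples and 0.933 to 0.953 between conditions. Neighbouring windows are not independent, and all samples share the control library.

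**Figure D2:**
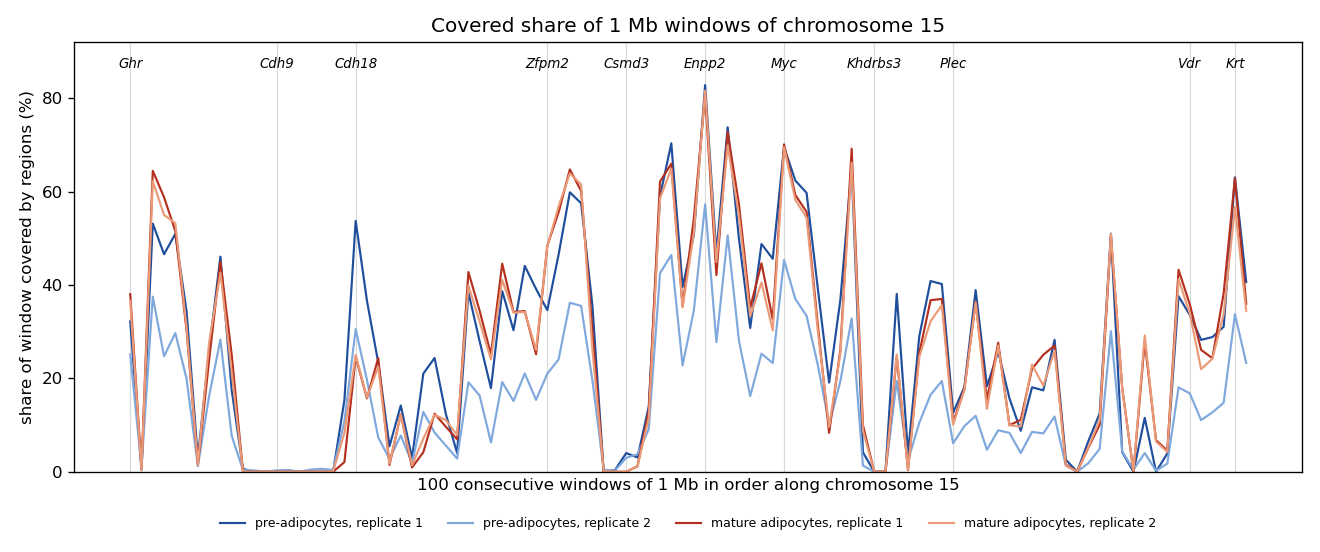
Percent of each 1 Mb window covered by regions (vertical axis) for 100 consecutive windows in order along chromosome 15 (horizontal axis), 1 line per sample, with some genes named at their windows. The peaks at Enpp2 and Myc and the empty or sparse stretches at Cdh9, Csmd3 and Khdrbs3 recur in all 4 lines, and pre-adipocyte replicate 2 runs below the others at the peaks.

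The fullest window ran from 54 to 55 Mb and held Tnfrsf11b, the decoy receptor osteoprotegerin, Colec10, Mal2, Ccn3, a matricellular protein, and Enpp2, which encodes autotaxin, the secreted enzyme that makes lysophosphatidic acid and is released by fat cells. Its covered share was 82.8% and 57.3% in pre-adipocytes and 80.8% and 81.7% in mature adipocytes, and it was the third fullest window of the genome. All samples but the shallow pre-adipocyte library lay within a few percentage points of each other there. The window from 56 to 57 Mb, whose only coding start belongs to the hyaluronan synthase Has2, was covered over 73.8% and 50.6% in pre-adipocytes and 72.8% and 69.9% in mature adipocytes. The window of Myc, from 61 to 62 Mb, had 69.6% and 45.4% against 70.1% and 69.5%, although the body of Myc itself touched no region in any sample. The other fullest windows were those of the cohesin subunit Rad21 from 51 to 52 Mb (mean 61.9%) and of the sialyltransferase St3gal1 from 67 to 68 Mb (mean 58.4%). In each of these 5 windows pre-adipocyte replicate 2 was the lowest sample. Like Myc, Rad21 and St3gal1 touched no region over their bodies in any sample.

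These windows belonged to longer stretches. From 50 to 58 Mb, 8 neighbouring windows from Trps1 to Fam83a all exceeded 30%, with a mean of 53.6% and 28 coding starts. Another 6 windows from 59 to 65 Mb, with the squalene epoxidase gene Sqle, Myc and the adenylyl cyclase gene Adcy8, averaged 45.4%. The windows from 5 to 8 Mb, with Rictor, Osmr, Lifr and Gdnf, averaged 49.0%, and those from 40 to 44 Mb, with Zfpm2, Angpt1 and Rspo2, averaged 48.4%. The empty part was as continuous: 9 windows from 13 to 22 Mb, the territory of the type II cadherin genes Cdh6, Cdh9, Cdh10 and Cdh12, had a mean of 0.105%, and the fullest of them averaged 0.25%. The windows from 45 to 49 Mb, with the potassium channel subunit Kcnv1 and the very large membrane protein gene Csmd3, averaged 1.07%. The 5 windows with no region at all were at 15, 18, 69, 70 and 87 Mb, of which the second holds Cdh10, the third the end of the RNA-binding protein gene Khdrbs3 and the last Fam19a5.

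Gene content did not order the windows simply. The 14 windows without a coding start had a median share of 0.15%, but ranged from 0 to 54.3%. The upper end was the window next to Myc (62 to 63 Mb), which holds no coding gene. The 72 windows with 1 to 19 starts had a median of 26.7% and ranged from 0 to 75.6%. The 14 windows with 20 or more starts ranged from 8.41% to 54.1% around a median of 22.2%. Among those dense in genes, the keratin window from 101 to 102 Mb was the fullest, at 63.1% and 33.8% in pre-adipocytes and 62.9% and 56.7% in mature adipocytes, whereas the window from 76 to 77 Mb with 53 starts, among them Plec, Hsf1 and Dgat1, reached a mean of 9.87%. As a description over 100 windows, Spearman's rho of the mean share was 0.26 with the number of starts and -0.0084 with the percent of the window inside gene bodies. Protein-coding gene bodies filled 39.5% of the chromosome's span but 25.3% and 23.6% of the covered bases in pre-adipocytes and 25.8% and 26.5% in mature adipocytes, so most covered bases lay outside coding genes. On the other chromosomes 40.4% of the span and 25.0% to 26.9% of the covered bases were in gene bodies.

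Single regions could be very long. The longest of pre-adipocyte replicate 1 spanned 86800 bp (chr15:54846601-54933400) inside Enpp2, where 3392 ChIP reads stood against 1645 control reads, 1.72-fold after scaling. Regions of the other samples covered 74.7%, 81.3% and 92.9% of its length in pre-adipocyte replicate 2 and mature replicates 1 and 2. The longest of mature replicate 1 spanned 83000 bp (chr15:7548601-7631600), with 4094 ChIP reads against 1926 control reads. This stretch lies outside coding genes, and its nearest coding start is that of Egflam. It was covered over 95.2% and 51.1% in pre-adipocytes and over 96.1% in mature replicate 2. The region with the most ChIP reads of all, 4450 against 1800 control reads, lay at chr15:57042401-57123600 in mature replicate 1, 388 kb from the start of Has2, and was covered over 93.3%, 81.0% and 99.0% in the other samples. These long regions were thus found again in every sample, in shorter pieces in the shallow library. Regions of 10 kb or more held 57.0% and 11.9% of the covered bases of chromosome 15 in pre-adipocytes and 45.0% and 41.8% in mature adipocytes, beside 45.6%, 10.1%, 30.3% and 28.2% over the genome.

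Before and after differentiation the totals of the chromosome overlapped or differed by no more than 4 samples can resolve. The covered share averaged 20.8% ± 8.51 before and 25.7% ± 0.491 after differentiation (SD, n = 2 each). The number of regions was 3398.5 ± 510 against 4297 ± 140 (two-sided exact permutation test, p = 0.333), and the median width was 4700 ± 2121 bp against 4100 ± 141 bp (exact permutation p = 1.0). With 2 samples a condition the smallest p this test can give is 0.333. Relative to the genome-wide share of the same sample, chromosome 15 was covered 2.47 and 2.74 times as densely in pre-adipocytes and 2.27 and 2.28 times in mature adipocytes, and these groups did not overlap. The covered share and this relative share rest on what the chromosome was selected on, so no test is attached to either. Region number and width make up the covered share, so their p-values are no independent support. Without pre-adipocyte replicate 2 the difference in covered share turned to -1.20 percentage points. The median fold over control was 1.66 and 2.00 against 1.83 and 1.85.

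Among the 96 windows of the chromosome with a region in any sample, limma called 4 at an adjusted p under 0.05, against 6.34% of the 2144 windows tested over the genome (5.08% in favour of mature adipocytes and 1.26% in favour of pre-adipocytes). All 4 were sparsely covered. The window shares, measured or scaled, are parts of the share the chromosome was selected on. Calls on them therefore describe the windows beside the genome and are no independent support. The window from 94 to 95 Mb, with the protease gene Adamts20, the kinase gene Irak4 and Twf1, had no region in pre-adipocyte replicate 1 and 0.22% in replicate 2, against 6.78% and 6.46% in mature adipocytes (difference 6.51 ± 1.17 percentage points, SE; limma adjusted p = 1.12e-05). The 3 others were higher in pre-adipocytes. The window from 47 to 48 Mb, which holds part of Csmd3, was covered over 4.00% and 2.98% in pre-adipocytes and had no region in either mature sample (difference -3.49 ± 0.575; limma adjusted p = 1.49e-06), and the next window, which holds further Csmd3 sequence, had 3.06% and 3.76% against 1.18% and 1.12% (-2.26 ± 0.739; limma adjusted p = 0.0404). The window from 72 to 73 Mb, with the ends of Col22a1 and Trappc9 and the potassium channel gene Kcnk9, had 3.92% and 2.40% against 0.36% and 0.44% (-2.76 ± 0.585; limma adjusted p = 0.000373). None of the 4 was called without the mean-variance trend (a setting added after the data were seen), which let sparse windows take the small spread of other sparse windows, nor with regions limited to a fold of at least 2. Without pre-adipocyte replicate 2 the median difference over windows of the chromosome was -1.4 percentage points, beside 0.2 over the genome. Without replicate 1 it was 11.7, beside 4.1.

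Because pre-adipocyte replicate 2 had a lower genome-wide share (5.40%), the shares were also divided by each sample's genome-wide mean, an alternative added after the data were seen. Then 21 windows of the chromosome were called, 5 in favour of mature adipocytes and 16 in favour of pre-adipocytes, against 14.4% of windows over the genome (8.35% and 6.06% by direction). On scaled shares the median difference over windows of the chromosome was -1.9, beside 0.013 over the genome. The higher relative share of the chromosome in pre-adipocytes (2.47 and 2.74 against 2.27 and 2.28) enters each of its windows. The scaled calls therefore partly restate that share and are not separate window results. Of the 4 windows above, 3 were among the 21, and that from 48 to 49 Mb was not (limma adjusted p = 0.0824). On the measured shares, both mature samples exceeded both pre-adipocyte samples in 31 of the 100 whole windows, beside 35.1% over the genome, and both pre-adipocyte samples exceeded both mature samples in 13, beside 5.54%. Without pre-adipocyte replicate 2 these counts became 31 (36.4% over the genome) and 52 (30.5%).

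The windows furthest apart between conditions were fuller ones. The widest gap in favour of mature adipocytes was at 6 to 7 Mb, at 46.6% and 24.8% against 58.8% and 55.0%. This window holds C9, Rictor, a subunit of the mTOR complex 2, and Osmr, the oncostatin M receptor. Rictor touched no region, and Osmr was covered over at most 0.93% of its body. The bodies of C9, Fyb and Dab2 there were covered over 74.4%, 59.8% and 43.6% on average. Other large gaps were in the neighbouring windows of Zfpm2, a cofactor of GATA factors, at 34.6% and 21.0% against 48.5% and 48.3% (40 to 41 Mb) and 46.5% and 24.1% against 55.6% and 56.9% (41 to 42 Mb). None of these passed the test on measured or on scaled shares. In the St3gal1 window the gap (65.1% and 32.9% against 69.2% and 66.3%) turned sign on scaled shares. The window from 93 to 94 Mb, with the Polycomb-associated factor gene Yaf2 and the planar polarity gene Prickle1, was covered over 11.6% and 4.00% in pre-adipocytes and 27.9% and 29.2% in mature adipocytes (limma adjusted p = 0.0562 on measured and 0.00482 on scaled shares). It adjoins the called window from 94 to 95 Mb.

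In the opposite direction the largest gap was in the second window of Cdh18, from 23 to 24 Mb, with 53.8% and 30.6% in pre-adipocytes and 24.6% and 25.0% in mature adipocytes (limma adjusted p = 0.479 on measured and 0.00335 on scaled shares). The window beside it without coding genes, from 24 to 25 Mb, had 36.6% and 19.7% against 15.7% and 15.9%. The first window of Cdh18, from 22 to 23 Mb, had 15.3% and 10.8% against 2.06% and 8.34%. A further window without coding genes, from 29 to 30 Mb, had 21.0% and 12.8% against 4.18% and 7.08%. The window from 65 to 66 Mb, with Efr3a, Oc90, Hhla1 and the end of Kcnq3, a neuronal potassium channel subunit, had 19.1% and 10.2% against 8.34% and 9.62%. These 5 passed the limma test on scaled shares, with adjusted p from 0.00324 to 0.0265, and none passed on measured shares. They were picked among windows in which both pre-adipocyte samples lay above both mature samples, so the shallow library exceeds both mature samples by selection.

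**Figure D3:**
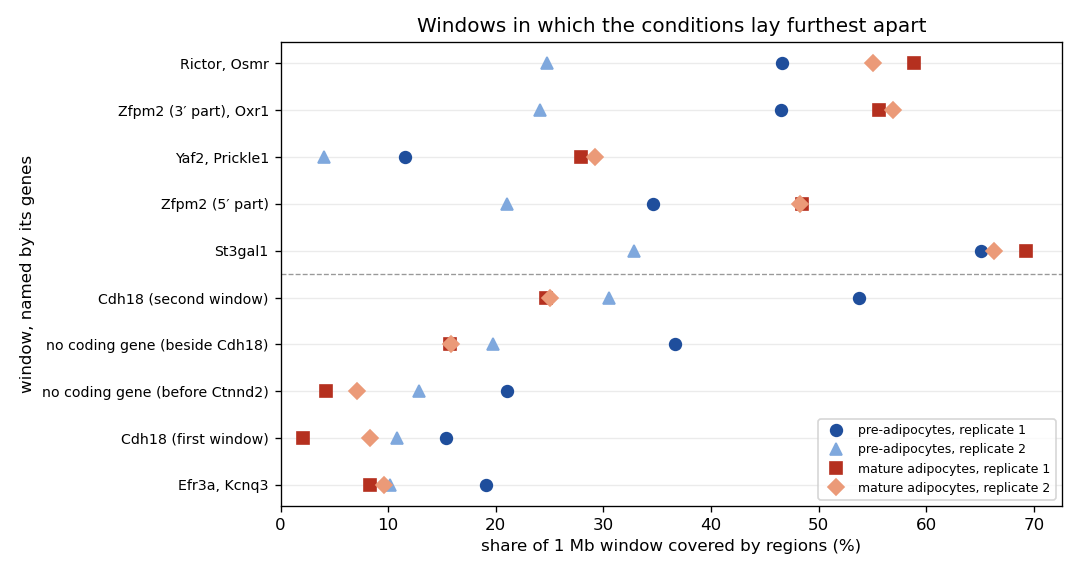
Percent of a 1 Mb window covered by regions (horizontal axis) in 5 windows per direction, named by their genes, with 1 marker per sample and a dashed line between the directions. The windows have the largest gaps among those in which the samples of the 2 conditions did not overlap. Names mark the windows and not covered genes: Rictor and St3gal1 touched no region in any sample. In the Yaf2 and Prickle1 window both mature samples (27.9% and 29.2%) lie far right of both pre-adipocyte samples, and in the second Cdh18 window both lie left of them.

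Strength of enrichment inside the regions was tested apart from their extent. On the log2 ratio of ChIP to control reads per window, limma called none of 84 windows of the chromosome, where 0 had an unadjusted p under 0.05, and 0.0558% of 1791 windows over the genome (0.0558% in favour of mature adipocytes and 0 in favour of pre-adipocytes). These ratios were not centred per sample, and the genome-wide median fold was 1.61 and 2.01 in pre-adipocyte replicates 1 and 2. That gap enters the SE of every window. In the Myc window the log2 difference was -0.048 with an SE of 0.22. The lack of calls therefore cannot decide whether strength changed. Leaving out a pre-adipocyte replicate leaves 1 sample in that condition, so only effect sizes are given. The median log2 difference over windows of the chromosome was -0.13 without replicate 1 (-0.18 over the genome). Without replicate 2 it was 0.13 (0.14 over the genome). With all 4 samples and each sample's median subtracted, 7 windows of the chromosome had an unadjusted p under 0.05 and none was called. Overlapping regions of the 4 samples were merged into 3442 regions on the chromosome, of which 1214 (35.3%, beside 20.4% over the genome) held a call in all 4 samples and 1017 in 1 sample (29.5%, beside 41.2%). Both mature samples alone held a call in 318 (9.24%, beside 12.9%) and both pre-adipocyte samples alone in 83 (2.41%, beside 1.62%). Without pre-adipocyte replicate 2 these became 435 (12.6%, beside 16.6%) and 256 (7.44%, beside 6.79%). On the 1214, the edgeR quasi-likelihood test of ChIP reads per called length found 0 at an adjusted p under 0.05, beside 0.0856% of the 12857 tested over the genome (0.0778% in favour of mature adipocytes and 0.00778% in favour of pre-adipocytes). DESeq2 also called 0 of them, and 137 (11.3%, beside 9.15% over the genome) had an unadjusted edgeR p under 0.05. Their median log2 difference was 0.014 (-0.00066 over the genome), and 99.8% lay within 0.5 of 0 on the log2 scale. The scaling between samples places the typical region near 0. Only regions called in all 4 samples enter, so those called in a single condition are left out. These values therefore cannot show that density was unchanged.

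The smallest p in favour of mature adipocytes was at chr15:34616801-34645400 inside Nipal2, a magnesium transporter-like gene, with 31.8 and 17.3 ChIP reads per kilobase of called length in pre-adipocytes and 45.8 and 43.3 in mature adipocytes (log2 difference 0.34 ± 0.079, SE; edgeR adjusted p = 0.0736). The next lay outside coding genes, at chr15:6114401-6137600 (log2 0.32 ± 0.076, edgeR adjusted p = 0.0779) and chr15:5958601-5983800 (0.36 ± 0.092, edgeR adjusted p = 0.117). In the other direction the smallest p was at the short region chr15:90295401-90300400, outside coding genes, with 48.7 and 35.7 reads per kilobase against 36.8 and 37.1 (log2 -0.66 ± 0.17, edgeR adjusted p = 0.128). The raw reads per kilobase of pre-adipocyte replicate 2 are low throughout because that library is shallow, and the fit scales for this. Without replicate 2 of the pre-adipocytes the median log2 difference over regions of the chromosome was -0.0068, beside -0.0015 over the genome. Without replicate 1 it was 0.038, beside 0.00046.

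The chromosome was selected on its covered share, so the counts of genes that follow describe it and stand beside those of the genome without a test. Of 785 protein-coding genes, 298 and 232 touched a region in pre-adipocytes and 317 and 320 in mature adipocytes, and 185 (23.6%) did so in all 4 samples, beside 9.99% of the 21755 coding genes of the genome. The remaining genes included 385 without any region. Regions covered the annotated start of 126 and 46 genes in pre-adipocytes and of 112 and 121 in mature adipocytes, so starts were met far less often than bodies. Only 12 starts (1.53%, beside 0.616% over the genome) were covered in all 4 samples: those of C9, Lifr, the receptor of leukaemia inhibitory factor, Nipal2, Tnfrsf11b, Enpp2, Fer1l6, Tmem71, Hoxc12, Hoxc6, Hoxc4, Gtsf1 and Gtsf2. Without pre-adipocyte replicate 2 these counts were 235 bodies (12.8% over the genome) and 36 starts (1.61%).

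A region over the body in both mature samples and neither pre-adipocyte sample was found for 29 genes (3.69%, beside 3.07% over the genome), a share near that of all genes. The opposite pattern was found for 9 genes (1.15%, beside 0.45%): Lrp12, Csmd3, Oc90, Kcnq3, Baiap2l2, Fam227a, Rapgef3, Vdr and Gm9918. At gene starts the counts were 26 (3.31%, beside 0.919%) for mature adipocytes alone, among them Has2, Hoxc8, Krt75, Krt84, Slc22a22 and Aqp2, and 7 (0.892%, beside 0.294%) for pre-adipocytes alone, which were Cyp11b1, Spatc1, Efcab6, Mlc1, Hdac7, Dnajc22 and Krt80. All of these shares on starts exceed the genome's, as does the share of starts covered at all on this chromosome. The start of Has2 was covered in both mature samples, and its body over 4.06% and 11.1% in pre-adipocytes and 41.9% and 48.8% in mature adipocytes. Without pre-adipocyte replicate 2, the counts for pre-adipocytes alone grew to 21 bodies (2.68%, beside 1.88% over the genome) and 53 starts (6.75%, beside 2.66%). Those for mature adipocytes alone grew to 35 (4.46%, beside 4.33%) and 31 (3.95%, beside 1.08%).

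Genes of fat cells and lipid metabolism were spread over the whole range. Of 32 such genes on the chromosome, 18 and 13 touched a region in pre-adipocytes and 16 and 15 in mature adipocytes. In all 4 samples 10 did so (31.25%), in the 3 without pre-adipocyte replicate 2 12 did, and 11 touched none. Of all coding genes of the chromosome, 23.6% did so in all 4, 29.9% in those 3, and 49.0% touched none. The median mean body coverage of the list was 4.46%, beside 0.311% for all coding genes of the chromosome. Enpp2 stood highest, with 97.4% and 76.3% of its body covered in pre-adipocytes and 83.9% and 91.1% in mature adipocytes. Wnt1, a Wnt ligand of a pathway that restrains fat cell formation, had 79.9% and 0 against 69.9% and 54.8%, and the matrix protein gene Fbln1 65.3% and 21.3% against 52.6% and 44.0%. Ppara, the nuclear receptor that drives fatty acid oxidation, was covered over 20.3% and 23.6% against 27.7% and 21.2%, so all 4 samples overlapped.

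Some members of the list had values that did not overlap between conditions, though no test was run on single genes. Pnpla3, a lipid droplet hydrolase gene, was covered in mature adipocytes alone (54.6% and 20.6%), and Vdr, the vitamin D receptor, in pre-adipocytes alone (4.68% and 4.98%). Trps1, a GATA-type repressor, had 9.53% and 7.04% against 35.1% and 33.0%. Angpt1, a vascular ligand, had 12.8% and 7.93% against 33.3% and 29.2%, and Zfpm2 1.07% and 0.31% against 13.3% and 13.6%. These 3 were singled out after their values were seen. How many listed or coding genes separate in this way was not counted, so the 3 are no result about the list. Among windows of the genome, both mature samples exceeded both pre-adipocyte samples in 35.1%, beside 5.54% the other way. The 11 members without a region were Rictor, Klf10, Sqle, Myc, Cyc1, Dgat1, Atf4, Ep300, Tef, Srebf2 and Pnpla5, a set with the enzymes of triglyceride (Dgat1) and sterol (Sqle) synthesis and the sterol regulator Srebf2. Rictor, Sqle and Myc have no region of their own although they lie in windows covered above 30%.

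**Figure D4:**
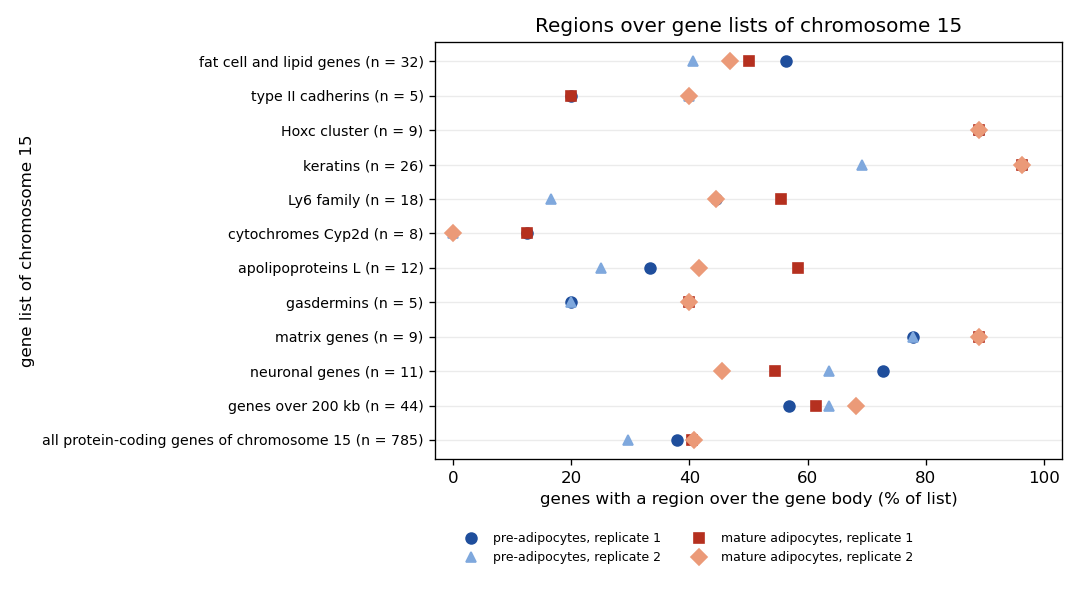
Percent of the genes of each list that touch a region over the gene body (horizontal axis), for lists of genes on chromosome 15 and, at the bottom, all its protein-coding genes, with 1 marker per sample. Keratins and the Hoxc cluster lie furthest right, Cyp2d genes furthest left, and all coding genes between 29.6% and 40.8%.

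The Hoxc and keratin clusters towards the end of the chromosome touched regions in every gene. Of all coding genes of the chromosome, 51.0% touched a region in at least 1 sample and 23.6% in all 4. In the 3 samples without pre-adipocyte replicate 2 the share was 29.9%. All 9 Hoxc genes, transcription factors that set position along the body axis, touched a region in at least 1 sample, 7 in all 4 and 8 in the 3 without pre-adipocyte replicate 2, with a median body coverage of 78.3%. Hoxc6 had 88.3% and 67.7% in pre-adipocytes and 100% and 83.9% in mature adipocytes, and Hoxc4 87.7% and 68.7% against 90.0% and 76.6%. Hoxc13, at the outer end of the cluster, was the exception, with a region in pre-adipocyte replicate 2 alone (28.7%). The annotated span of Hoxc5 runs over neighbouring Hoxc genes, so its value (a mean of 79.4%) is not separate from theirs. All 26 keratin genes, which encode the type II keratins of epithelia and hair and Krt18, touched a region in at least 1 sample, 17 in all 4 and 24 in those 3, with a median body coverage of 54.1%. Krt79 had 63.0% and 78.2% against 100% and 97.1%, Krt88 100% and 83.8% against 63.4% and 87.0%, and Krt72 85.8% and 33.0% against 100% and 87.5%. Krt75 (61.1% and 24.6% against 100% and 100%) and Krt84 (20.2% and 23.1% against 87.2% and 69.2%), whose promoters are printed above, were covered further in both mature samples. Krt18, a keratin of simple epithelia, touched a region in mature replicate 1 only.

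The type II cadherin genes differed among themselves. Of 5 such genes 3 (Cdh6, Cdh9 and Cdh10) touched no region in any sample, beside 49.0% of all coding genes of the chromosome. Per sample 20% to 40% of the 5 touched a region, beside 29.6% to 40.8% of all coding genes. Cdh12 reached at most 0.26% of its body. Cdh18, in contrast, was covered over 39.1% and 26.5% in pre-adipocytes and 9.10% and 16.4% in mature adipocytes, with both pre-adipocyte samples higher. Of 9 matrix genes 8 touched a region in at least 1 sample, beside 51.0% of all coding genes of the chromosome, led by Col14a1, a fibril-associated collagen, at 89.4% and 70.4% against 92.6% and 89.8%; Adamts20 had none. Of 11 neuronal membrane and signalling genes 5 were touched in all 4 samples (45.5%, beside 23.6%) and 3 in none, beside 49.0%. Of these 11, Csmd3 (3.30% and 3.30%) and Kcnq3 (3.66% and 2.60%) were touched in pre-adipocytes alone. Of the 44 genes over 200 kb, 25 to 30 were touched per sample (56.8% to 68.2%, beside 29.6% to 40.8% of all coding genes of the chromosome) and 21 in all 4 (47.7%, beside 23.6%), with Rbfox2 and Slc2a13 in mature adipocytes alone.

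Tandem families varied among themselves. Of all coding genes of the chromosome, 29.6% to 40.8% touched a region per sample, 23.6% did so in all 4 and 49.0% in none. Of 18 genes of the Ly6 family of small surface proteins, 8, 3, 10 and 8 touched a region in the 4 samples and only 2 did so in all of them. Ly6k (57.4% and 83.5%) and Ly6i (77.0% and 22.3%) were covered in mature adipocytes alone, while Ly6a, Ly6c1, Ly6c2 and Ly6e had no region. Among 12 apolipoprotein L genes 2 were touched in all 4 samples and 5 in none, and Apol10b in mature adipocytes alone (14.5% and 34.0%). Of 5 gasdermin genes, pore formers of cell death, 3 had no region. Of 8 Cyp2d genes, cytochromes of drug metabolism, 7 had none, and Cyp2d22 was touched in replicate 1 of each condition only. Reads were counted where they mapped uniquely, so near-identical copies in these families can be undercounted and their values are uncertain.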

How the data were processed

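MNase-digested chromatin of 2 pre-adipocyte and 2 mature samples was precipitated through the GFP tag of macroH2A1.2. Per the methods and processing notes, the authors aligned reads to mm10 with Bowtie 1.1.2 (unique, up to 2 mismatches), removed duplicate reads with Picard and called regions in each sample with SICER 1.1 against 1 control library. The deposited tables hold, per region, read counts of ChIP and control libraries, a p-value, a fold ratio over control and an FDR p-value, at most 0.001 in the files, which is stricter than the limit the methods state. The methods' wording on the source material (adipose tissue) differs from the labels (3T3-L1), which were followed. Starts were counted from 0 in the files and are printed from 1.

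Covered shares were computed over 1 Mb windows between the outermost annotated features (GENCODE M21). Windows were tested genome-wide with limma 3.58.1 (trend; the prior degrees of freedom were infinite, so a window takes the spread of windows of similar mean), and merged regions called in all 4 samples with edgeR 4.0.16 (quasi-likelihood, called length as offset, TMM), both with Benjamini-Hochberg adjustment; single values used exact permutation tests (SciPy 1.17.1). A merge needed an overlap of at least 1 bp. In simulated data of 12857 regions, the edgeR step recovered 81% of changes of 0.5 and 100% of changes of 1 (log2), with 9 false calls. The spread of the simulated counts was a small set value, not one estimated from the samples. The edgeR recoveries thus need not hold for the real regions. In 2144 simulated windows, with each sample's mean subtracted, limma recovered 2% of changes of 5 and 86% of changes of 15 percentage points, with 0 false calls. Beyond each sample's mean level the simulated noise was set small. The main test used measured shares, so these recoveries do not carry over to it. There the window from 6 to 7 Mb, with a gap of 21.2 percentage points, had an SE of 15.0.

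The members and lists were chosen with earlier results of these data known. Windows were named as the 5 fullest, the 5 emptiest and the 5 furthest apart in each direction. The last were taken among windows in which the samples of the 2 conditions did not overlap. Regions were named as the longest, the richest in reads and those with the smallest p. Genes were named as the 3 most covered of each list and those covered in a single condition. Alternatives were stricter region limits, other window sizes, scalings and tools, and leaving out each sample. Total library depth is not given in the sources used here.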

Additional observations from a re-analysis of the deposited data

How the results depend on the processing

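Leaving out single samples moved most counts. In the fits it leaves 1 sample in a condition. Counts of calls from such fits are therefore listed as ranges only and cannot decide how many windows or regions differ. In the fits that gave the highest of these counts, calls over the genome rose as well. The high counts are thus no result about this chromosome. The mature minus pre-adipocyte difference in covered share of the chromosome (4.81 percentage points) ranged from -1.20 to 10.8 and the difference in median width (-600 bp) from -2100 to 900 bp, in each case turning sign when a pre-adipocyte sample was left out. The windows called by limma (4) ranged from 1 to 62, windows called on enrichment (0) from 0 to 26 and regions called by edgeR (0) from 0 to 35, the high values all without a pre-adipocyte sample. Genes covered in mature adipocytes alone (29) ranged from 35 to 79 over bodies and (26) from 31 to 59 over starts, genes in pre-adipocytes alone (9) from 13 to 21 over bodies and (7) from 11 to 53 over starts, and starts covered in every sample (12) from 16 to 36; merged regions called in mature adipocytes alone (318) ranged from 435 to 662 and in pre-adipocytes alone (83) from 147 to 298; fewer samples have to meet each of these conditions, so they can only grow. The shares over the genome grew too. For genes in mature adipocytes alone they were 4.33% to 6.16% over bodies and 1.08% to 2.82% over starts. For pre-adipocytes alone they were 0.919% to 1.88% and 0.478% to 2.66%, and for starts in every sample 0.772% to 1.61%. For merged regions they were 16.6% to 27.9% in mature and 3.05% to 8.19% in pre-adipocytes alone. Windows with both mature samples beyond both pre-adipocyte samples (31) ranged from 31 to 74, beside 36.4% to 66.2% over the genome. The opposite (13) ranged from 13 to 52, beside 7.07% to 30.5%. The counts over samples left out were added after the data were seen.

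Under other settings limma called 8 of 177 windows of 0.5 Mb, beside 271 of 3796 over the genome. With regions found in both replicates it called 19 of 86, beside 791 of 1878. With each sample's mean subtracted it called 8 of 96, beside 136 of 2144. With shares scaled to the sample mean it called 21 of 96, beside 309 of 2144. Among windows with a region in all 4 samples it called 1 of 84, beside 52 of 1792. Without the trend (added after the data were seen) it called 0, here and over the genome. With a fold of at least 2 it called 0, beside 6 of 2057. For the scalings none of the 4 measured calls remained after subtraction and 3 did after division. The cause of the other changes was not tested. The window from 6 to 7 Mb turned to -0.34 with a fold of at least 2, and that from 67 to 68 Mb to -0.14 with scaled shares. Without a length offset edgeR called 1 region, beside 3 of 12857 over the genome.

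With the replicate number as a block (replicate block), limma called 3 windows, beside 75 of 2144 over the genome. Under it edgeR called 1 region, the one inside Nipal2 (edgeR adjusted p = 0.0342), beside 27 of 12857. The labels state no pairing, and the deviations of samples with the same number correlated at 0.28 over window shares and 0.0078 over region densities, and no pairing was assumed. Under the block the window from 48 to 49 Mb lost its call and the Nipal2 region gained one, and no other call of a named window or region changed. Totals of the chromosome kept their direction under stricter FDR, fold and overlap limits. Depth limits what can be said, since 1 of 2 pre-adipocyte libraries is shallow and the region edges follow depth.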
